A study of Sus scrofa with 2 samples.

Results

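Of 10 genes listed for the intercalated disc and its catenins, 9 were named in both count matrices, among 31908 genes in all, and are described here across the cell classes of the pig left ventricle. They were chosen by symbol: the catenins CTNNA3, CTNNA1, CTNNB1 and JUP, the cadherin CDH2, the desmosome genes DSP and PKP2, the gap junction gene GJA1 and the scaffold gene TJP1. DSG2, the tenth, has no symbol in the matrices and is given only as a companion, through a reference table that names its Ensembl ID. Single-nucleus RNA sequencing was done on frozen tissue of the left ventricle (free wall) from Bama pigs. There was 1 library from wild-type tissue (WT) and 1 from triple-transgenic tissue (TG, PNPLA3I148M-GIPRdn-hIAPP), which carries PNPLA3 with the I148M change, a form of GIPR, the receptor of the incretin GIP, labelled dominant-negative, and human IAPP (amylin). Both genotypes had eaten a diet high in fat and sucrose for 12 months. The sources used here do not give the promoters of the transgenes, the cell types they act in or how many pigs each library pools.

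The intercalated disc joins heart muscle cells end to end. At its adherens junctions, N-cadherin (CDH2) binds beta-catenin (CTNNB1) or plakoglobin (JUP), and alpha-catenins (CTNNA1, CTNNA3) tie these to actin. Desmosomes anchor the intermediate filaments through plakophilin-2 (PKP2) and desmoplakin (DSP), gap junctions of connexin 43 (GJA1) pass current from cell to cell, and ZO-1 (TJP1) is a scaffold at their edge. Besides CTNNA3, which is placed with its values, the members lie on chromosome 2 (CTNNA1, 140682776 to 140869828), 13 (CTNNB1, 25163550 to 25208314), 6 (CDH2, 112396713 to 112629073), 7 (DSP, 4862649 to 4915626), 5 (PKP2, 41424687 to 41509590), 12 (JUP, 20902395 to 20931208) and, for both GJA1 (40988818 to 41002129) and TJP1 (144930387 to 145195857), chromosome 1 of Sscrofa11.1. Mutations of several of these genes are known causes of arrhythmogenic cardiomyopathy, and beta-catenin is also the transcriptional effector of Wnt signalling.

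The WT library kept 16725 of 18251 barcodes, with a median of 5442 unique molecular identifiers (UMIs, counted RNA molecules). The TG library kept 14939 of 15000, with a median of 3937 UMIs. The matrices began at unlike depths, with a lowest barcode total of 500 UMIs in WT and 1972 UMIs in TG. Too few genes were found in 943 WT barcodes and 1 TG barcode. Barcode sequences shared by both libraries numbered 81. Nuclei were grouped into 9 classes from marker genes, named "-like" because the names rest on transcripts alone. Most WT cardiomyocyte-like nuclei lay in clusters 0 and 2 and most TG ones in clusters 1 and 6. Levels are UMIs summed over a class per 1000000 nuclear-encoded UMIs (CPM), with 95% intervals that cover counting error only. Where a pair of values is given without labels, WT comes first. With 1 library per genotype there was no test. Genotype, animal and library cannot be told apart. A level here is RNA in nuclei, which may differ from RNA in whole cells. A set of 12 cardiomyocyte markers such as MYH7 and TNNT2 was found in every class. Outside cardiomyocytes, their median level was 27.0% to 49.4% of the cardiomyocyte level in WT and 76.5% to 140% in TG, and their summed level 3488 to 11148 CPM and 9951 to 16118 CPM, with none of the 12 at 0.

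CTNNA3, alpha-T-catenin, the alpha-catenin known from heart and testis, was high in 2 classes, cardiomyocytes and smooth muscle. The gene spans 1779 kb of chromosome 14 (Sscrofa11.1, 69195231 to 70974543). In cardiomyocyte-like nuclei it stood at 8402 CPM (8381 to 8423) in WT and 7264 CPM (7240 to 7289) in TG. In smooth muscle-like nuclei, 280 in WT and 169 in TG, it stood at 6549 CPM (6404 to 6697) and 8811 CPM (8558 to 9070). The smooth muscle level was therefore 0.779 times (0.762 to 0.797) the cardiomyocyte level in WT and 1.21 times (1.18 to 1.25) in TG. These ratios lie on opposite sides of 1.

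The place of smooth muscle above or below heart muscle turned on which cluster was read. Clusters 101 and 103 held the smooth muscle-like nuclei, both led by MYH11, smooth muscle myosin. Cluster 101 held 97 WT and 167 TG nuclei, and in it CTNNA3 stood at 9842 and 8895 CPM, a TG over WT ratio of 0.904 (0.865 to 0.944). Cluster 103, with 183 nuclei in WT and 2 in TG, stood at 5045 CPM. In cluster 101 alone, a comparison added after the data were seen, smooth muscle was above heart muscle in WT as well, at 1.17 times.

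Most single nuclei of both muscle classes held CTNNA3. A CTNNA3 UMI was found in 97.9% of WT and 97.5% of TG cardiomyocyte-like nuclei, and in 91.1% and 98.8% of smooth muscle-like nuclei. In T or NK lymphocyte-like nuclei, which should lack the gene, the shares were 26.6% and 51.4%. Median depths were 3730 and 2729 UMIs in smooth muscle and 3403 and 3026 UMIs in lymphocytes. With every nucleus thinned to 1000 UMIs, the shares were 86.0% and 96.4% in smooth muscle, 96.1% and 93.7% in cardiomyocytes, and 15.8% and 32.2% in lymphocytes. The median nucleus gave CTNNA3 0.792% of its UMIs in WT and 0.688% in TG cardiomyocytes, and 0.486% and 0.749% in smooth muscle. Smooth muscle nuclei varied more widely among themselves, with 5th to 95th percentiles of 0 to 1.90% in WT and 0.141% to 1.83% in TG.

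**Figure D1:**
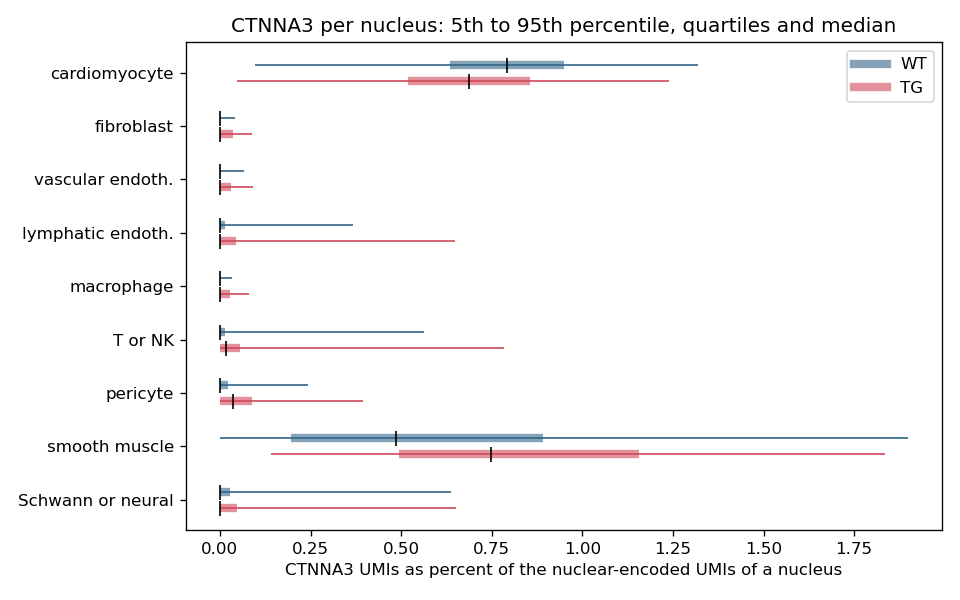
CTNNA3 per nucleus by class in WT (blue) and TG (red): the x axis is CTNNA3 UMIs as a percent of the nuclear-encoded UMIs of a nucleus, thin lines run from the 5th to the 95th percentile, thick bars span the quartiles and ticks mark the median. The cardiomyocyte medians of 0.792% and 0.688% and the smooth muscle medians of 0.486% and 0.749% stand apart from the other classes, whose medians are near 0.

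The cadherin, desmosome and gap junction members did not share this smooth muscle level. In cardiomyocytes CDH2 measured 3102 CPM (WT) and 2735 CPM (TG). In smooth muscle it measured 41.4 and 156 CPM, which is 1.34% and 5.71% of the heart muscle level. PKP2 stood at 3.34% and 6.69%, DSP at 8.60% and 32.2% and GJA1 at 13.1% and 14.9% of their cardiomyocyte levels. There were thus 158 CTNNA3 UMIs per CDH2 UMI in WT smooth muscle and 56.5 in TG, against 2.71 and 2.66 in cardiomyocytes. The broadly expressed catenins stood nearer to their cardiomyocyte levels, with CTNNA1 at 89.9% and 83.9%, and CTNNB1 at 112% in WT and 69.2% in TG. JUP stood above its low cardiomyocyte level, at 178% and 208% from 45 and 17 UMIs, and TJP1 was at 41.7% and 63.6%.

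The 12 cardiomyocyte markers were found in the smooth muscle nuclei too. They stood at 2.87% (ACTN2) to 116% (MYOM1) of the cardiomyocyte level in WT and 14.3% (ACTN2) to 197% (TNNC1) in TG. MYOM1 was at 1229 CPM in WT smooth muscle. In the other WT classes outside cardiomyocytes it was at 37.6 (macrophage) to 287 CPM (Schwann or neural). How much of the MYOM1 in smooth muscle was heart muscle RNA was not tested. CTNNA3 was not higher in the smooth muscle nuclei with the larger summed share of these markers. In WT smooth muscle RYR2 and MYOM1 gave 2678 and 1229 of the 6874 CPM summed over the markers. The split therefore cannot separate heart muscle RNA from RNA of the smooth muscle nuclei themselves. Smooth muscle nuclei below the median share of cardiomyocyte markers stood at 6797 CPM of CTNNA3 in WT and those above it at 6237 CPM, with 8994 and 8584 CPM in TG. In fibroblast-like nuclei the same split gave 53.1 and 402 CPM in WT and 145 and 494 CPM in TG. The 6 WT smooth muscle nuclei with no UMI of MYH7, MYL2 or TNNT2 held 42 CTNNA3 UMIs, or 3112 CPM (2243 to 4206), and TG had no such nucleus.

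**Figure D2:**
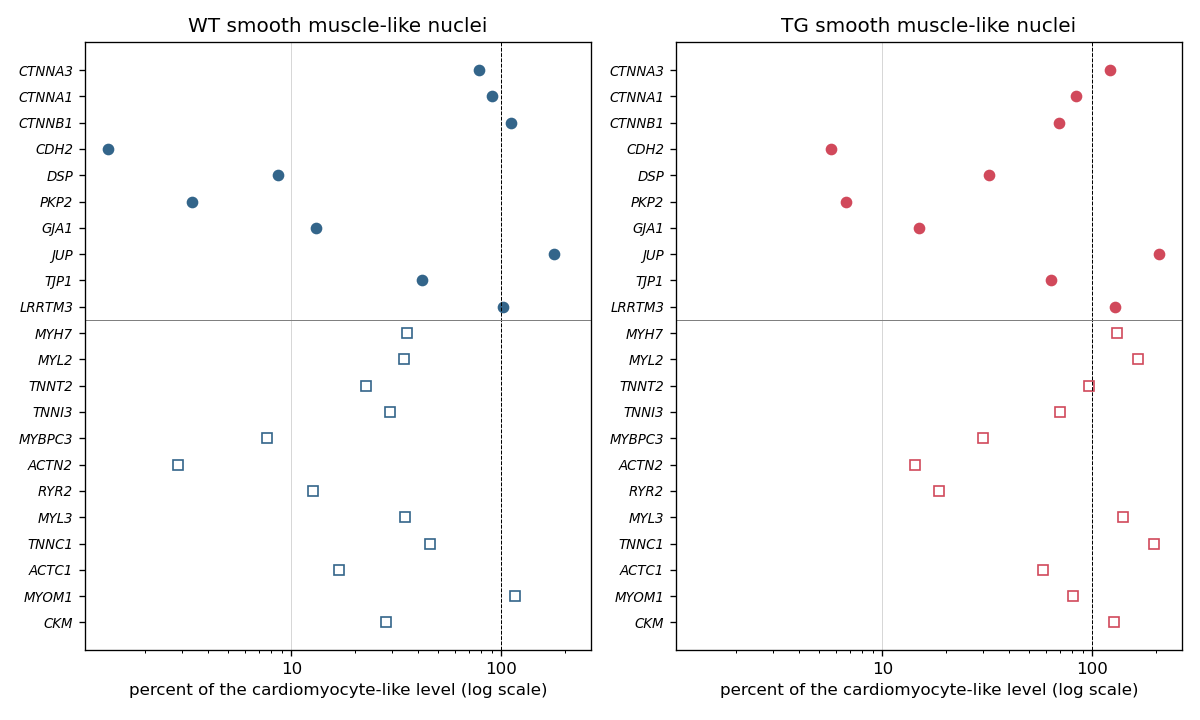
Level in smooth muscle-like nuclei as a percent of the level in cardiomyocyte-like nuclei of the same library (log axis), WT left and TG right: filled circles are the 9 members and LRRTM3, a gene inside CTNNA3, open squares are 12 cardiomyocyte markers, and the dashed line is 100%. CTNNA3 is at 77.9% in WT and 121% in TG, while CDH2 is at 1.34% and 5.71%.

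LRRTM3, a synaptic adhesion gene, lies within the span of CTNNA3 (chromosome 14, 70172460 to 70352073), and whether reads were counted by strand is not given in the sources used here, so its UMIs cannot be fully separated from those of CTNNA3. It stood at 741 CPM in WT cardiomyocytes and 1466 CPM in TG ones, a ratio of 1.98 (1.96 to 2.00), and at 752 and 1881 CPM in smooth muscle. LRRTM3 UMIs per CTNNA3 UMI were 0.0882 in WT cardiomyocytes and 0.202 in TG, and 0.115 and 0.213 in smooth muscle.

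Over the 18 levels of 9 classes in 2 libraries, the genes most like CTNNA3 by Pearson's r of log2(CPM + 1) were ENSSSCG00000048636 (0.979), MYOCD (0.967), ENSSSCG00000007369 (0.967), TMEM182 (0.963) and CAP2 (0.963), among 7672 genes. MYOCD encodes myocardin, a coactivator of smooth and cardiac muscle genes, and was one of the markers that named smooth muscle. CAP2 encodes a regulator of actin. Among the members, r with CTNNA3 was highest for PKP2, at 0.612, and lowest for CTNNB1, at -0.23. CDH2 and PKP2 were more alike, with r of 0.925. Over all classes the order of CTNNA3 levels after the muscle classes was, in WT, Schwann or neural (2011 CPM), T or NK lymphocyte (1777 CPM), lymphatic endothelium (1066 CPM), vascular endothelium (992 CPM), pericyte (653 CPM), fibroblast (206 CPM) and macrophage (116 CPM). In TG lymphocytes (3084 CPM) came before Schwann or neural-like nuclei (2268 CPM), pericytes (984 CPM) before vascular endothelium (604 CPM), and macrophages (391 CPM) before fibroblasts (310 CPM). No neighbours in either order had overlapping intervals of counting error. The levels share libraries and, outside cardiomyocytes, heart muscle transcripts.

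CDH2, PKP2, DSP and GJA1 were highest in cardiomyocytes in both libraries. Levels of different genes were not ranked against each other.

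**Figure D3:**
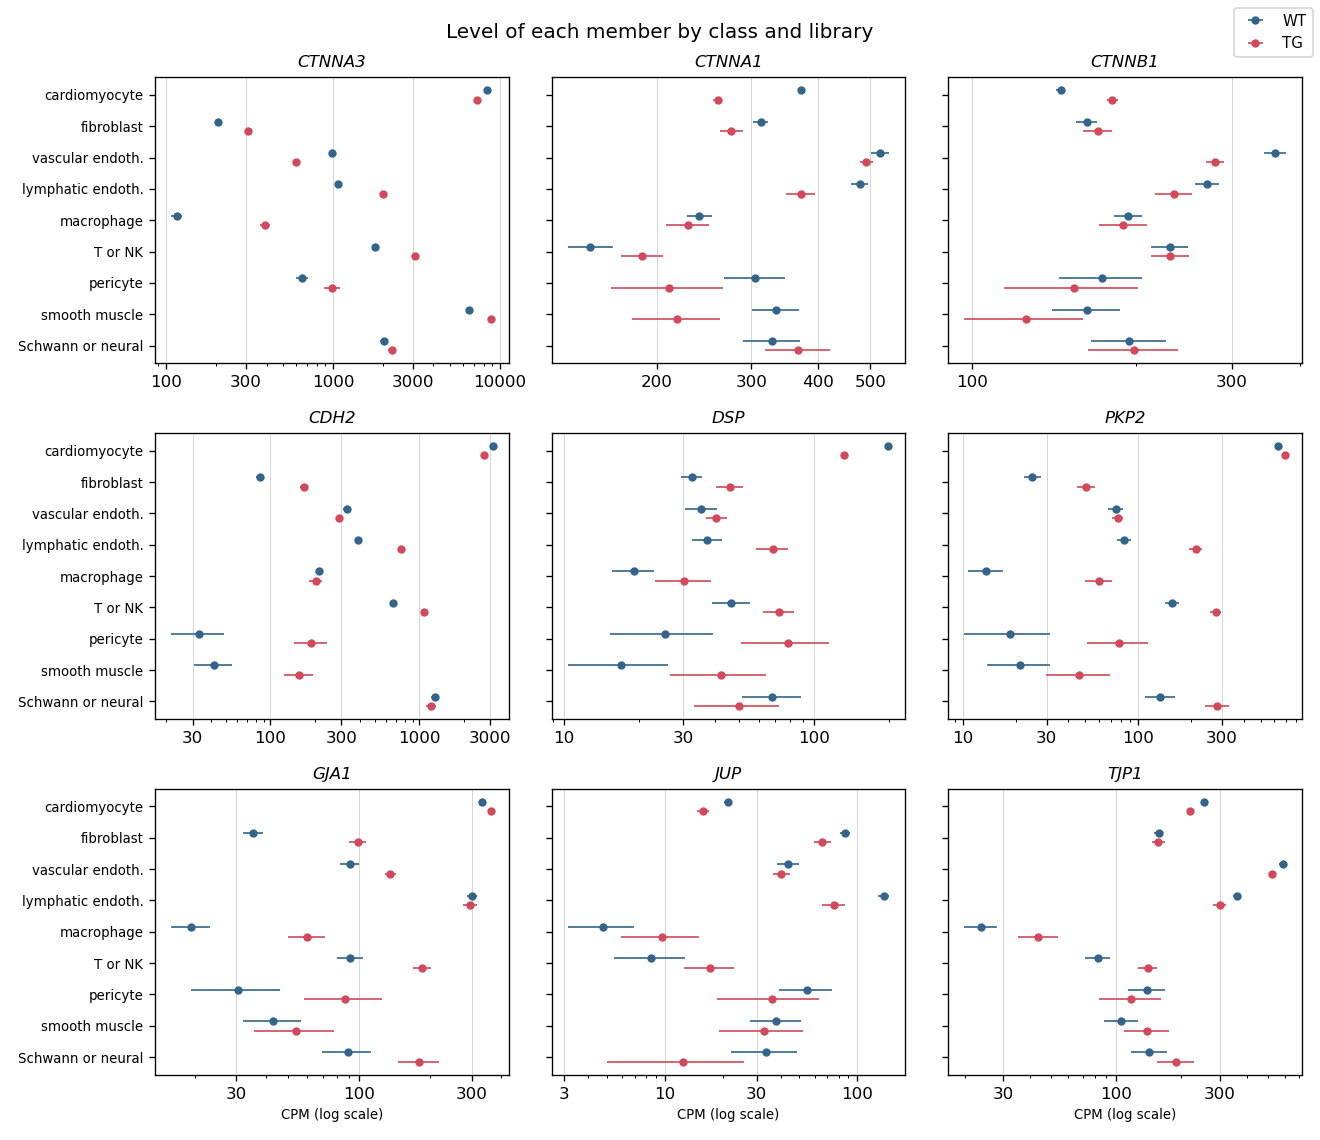
CPM (log axis, a scale for each panel) of the 9 members in 9 classes, WT in blue and TG in red, with 95% Poisson intervals of counting error. CTNNA3 is high in cardiomyocyte and smooth muscle, CDH2, DSP and PKP2 peak in cardiomyocyte, and JUP and TJP1 peak in endothelial classes.

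Some members were higher in the vessel lining than in heart muscle. JUP, which is shared by adherens junctions and desmosomes, measured 137 CPM (WT) and 75.6 CPM (TG) in lymphatic endothelial-like nuclei and 86.2 and 66.0 CPM in fibroblast-like nuclei. Cardiomyocytes stood lower, at 21.4 and 15.8 CPM. TJP1 was highest in vascular endothelial-like nuclei, at 585 and 522 CPM, with cardiomyocytes at 254 and 218 CPM. CTNNA1, the alpha-catenin of most tissues, also peaked there, at 522 and 491 CPM, as did CTNNB1 at 360.0 and 279 CPM. Below the endothelial classes the CTNNB1 levels lay close together. In WT its intervals overlapped between Schwann or neural-like nuclei (194 CPM) and macrophages (193 CPM) and between smooth muscle and fibroblasts (both 162 CPM). Cardiomyocytes had 145 CPM of CTNNB1 in WT (143 to 148), an interval that overlapped those of smooth muscle (140.2 to 187) and pericytes (144 to 205). In TG they had 181 CPM, above smooth muscle at 125 CPM. Their interval overlapped those of fibroblasts, pericytes, macrophages and Schwann or neural-like nuclei.

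GJA1 had a second high level in lymphatic endothelium, at 300.4 and 295 CPM, where cardiomyocytes stood at 330.5 and 363 CPM. Connexin 43 is known in lymphatic valves. DSG2, desmoglein-2, was at 54.6 and 48.3 CPM in cardiomyocytes and at 74.5 and 44.8 CPM in lymphatic endothelium, so in WT its lymphatic level was the higher. DSC2, the partner desmosomal cadherin, stood at 164 and 165 CPM in cardiomyocytes and 76.9 and 55.2 CPM in lymphatic endothelium. PKP2 was lower in this class, at 83.1 and 213 CPM.

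A small number of nuclei carried much of the CTNNA3 and CDH2 found outside muscle. Nuclei outside cardiomyocytes were left out where RYR2, the calcium release channel of heart muscle, took at least 25% of its median share in cardiomyocytes, a limit chosen after the data were seen. In T or NK lymphocytes this left out 46 of 625 WT and 100 of 568 TG nuclei, and CTNNA3 went from 1777 to 102 CPM (WT) and from 3084 to 418 CPM (TG). In lymphatic endothelium it went from 1066 to 107 CPM and from 2002 to 289 CPM, and in Schwann or neural-like nuclei from 2011 to 357 CPM and from 2268 to 350.4 CPM. Smooth muscle barely changed, at 6632 and 8634 CPM, nor did pericyte-like nuclei, which went from 653 to 621 CPM and from 984 to 895 CPM.

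CDH2 behaved alike in lymphocytes, going from 670.0 to 107 CPM (WT) and from 1069 to 196 CPM (TG). In Schwann or neural-like nuclei, where N-cadherin is a known adhesion molecule of glia, it kept 951 CPM in WT and 447 CPM in TG. In WT macrophage-like nuclei it was at 213 CPM before and 200.4 CPM after, with 0.545 CTNNA3 UMIs per CDH2 UMI. The endothelial levels of JUP, TJP1 and GJA1 did not rest on such nuclei. JUP stood at 149 and 92.8 CPM and GJA1 at 297 and 266 CPM in lymphatic endothelium, and TJP1 at 621 and 549 CPM in vascular endothelium.

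**Figure D4:**
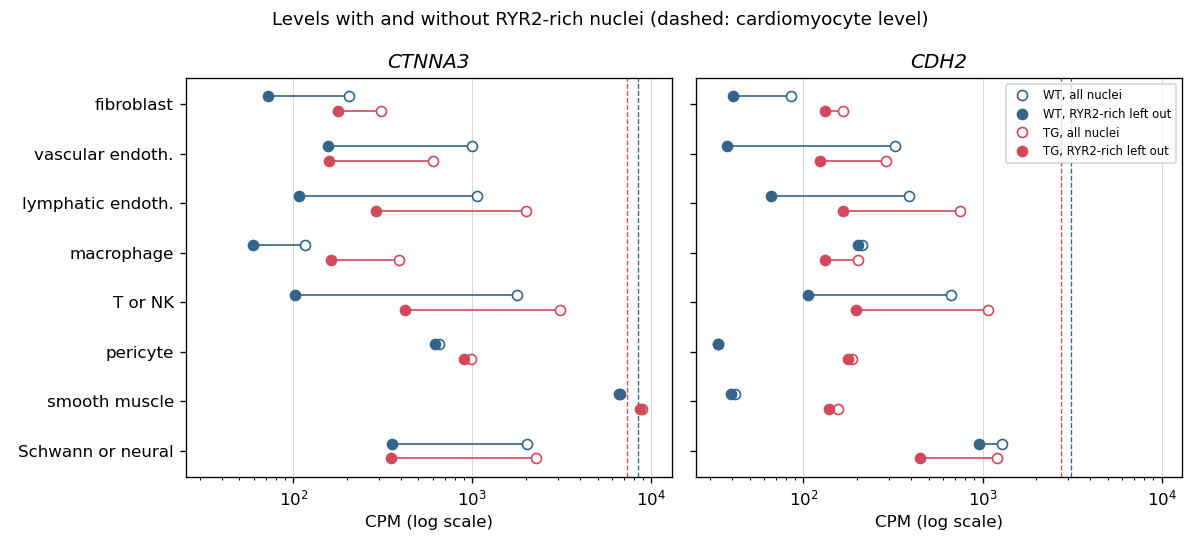
CTNNA3 (left) and CDH2 (right) in the 8 classes outside cardiomyocytes, in CPM on a log axis: open circles are all nuclei, filled circles are nuclei left after RYR2-rich ones are removed, and dashed lines are the cardiomyocyte levels of WT (blue) and TG (red). CTNNA3 in smooth muscle stays at 6632 and 8634 CPM, while in T or NK lymphocytes it goes to 102 and 418 CPM.

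Between the libraries, no member in cardiomyocytes was higher or lower in TG by 1.5 times with an interval that left out 1. By this rule 25.6% of 18892 genes with at least 20 UMIs were higher in TG and 8.80% lower, and among 8070 genes at 10 CPM or more the shares were 10.5% and 10.1%. The median log2 ratio of TG over WT was -0.21 for the members and 0.08 for all genes tested. DSP came nearest, with 197 and 132 CPM, a ratio of 0.670 (0.651 to 0.691). CTNNA1 was next, at 371 and 259 CPM, a ratio of 0.700 (0.685 to 0.715). CTNNB1 was at 145 and 181 CPM, a ratio of 1.25 (1.21 to 1.28), so these catenins stood on opposite sides of 1.

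The remaining members lay nearer to 1 than DSP and CTNNA1. JUP had a ratio of 0.737 (0.675 to 0.805), CTNNA3 of 0.865 and CDH2 of 0.881. TJP1 was at 0.859, PKP2 at 1.09 and GJA1 at 1.10. One gene without a symbol took 6.37% of cardiomyocyte UMIs in WT and 13.9% in TG. Leaving it out of the scaling moved all ratios up by 0.12 on the log2 scale, to 0.729 for DSP, 0.761 for CTNNA1, 0.940 for CTNNA3 and 1.35 for CTNNB1, with no change of direction for any member. With median-of-ratios scaling DSP and CTNNA1 passed the limit as lower, at 0.635 and 0.662.

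Because different clusters held most cardiomyocytes of each library, members were also read within clusters 1 and 2. In cluster 1, with 93 WT and 3164 TG nuclei, CTNNA1 was at 401 and 266 CPM (ratio 0.664), DSP at 253 and 141 CPM (0.558) and CTNNB1 at 111 and 174 CPM (1.56). In cluster 2, with 2749 and 185 nuclei, the ratios were 0.725, 0.782 and 1.23. In cluster 1 these 3 genes passed the limit, and in cluster 2 they did not. The directions of these genes were the same in both clusters. JUP was lower past the limit in cluster 2, at 0.491 (0.211 to 0.977), and in cluster 1 it was at 0.710 with an interval that held 1. TJP1 lay on either side of 1, at 1.12 and 0.711, and passed the limit in neither cluster. CTNNA3 was at 0.995 in cluster 1 and 0.933 in cluster 2, nearer to 1 than over all cardiomyocytes.

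**Figure D5:**
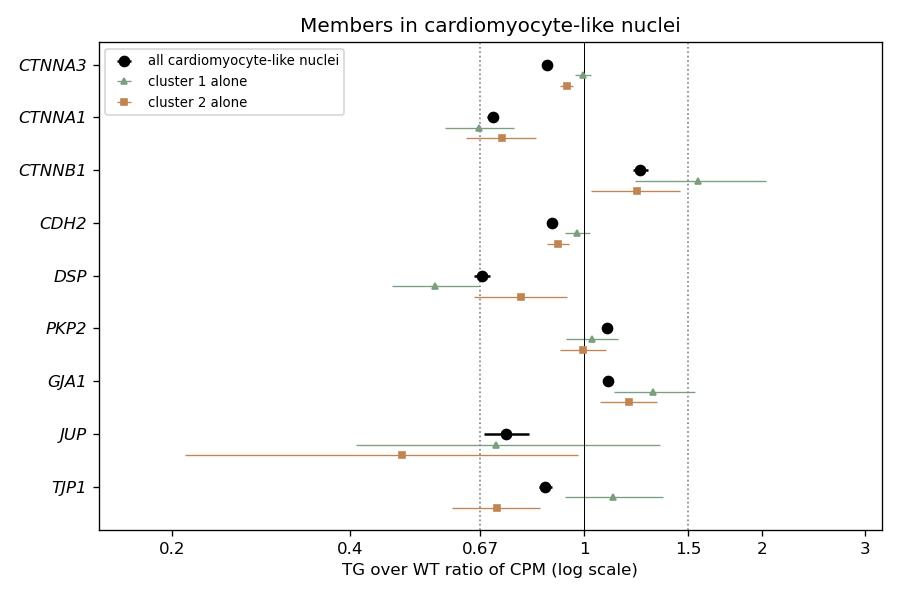
TG over WT ratio of CPM (log axis) of the 9 members in cardiomyocyte-like nuclei: black circles are all nuclei, triangles cluster 1 and squares cluster 2, with 95% intervals of counting error, and dotted lines mark the limits of a 1.5-fold difference. DSP (0.670) and CTNNA1 (0.700) lie lowest and CTNNB1 (1.25) highest over all nuclei.

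Related genes of the disc were read in cardiomyocytes by the same rule. Of 20 measured adherens junction genes, 5 were higher and 2 lower in TG, shares near the 25.6% and 8.80% of all cardiomyocyte genes. The lower ones were PKP4, plakophilin-4, with 474 and 194 CPM, a ratio of 0.408 (0.399 to 0.418), and ARVCF, a relative of p120-catenin, with 44.0 and 24.4 CPM. Among the higher ones, CTNND2, delta-catenin (2.29 and 12.3 CPM), and CDH11, a cadherin of connective tissue (1.23 and 5.44 CPM), were scarce. All 3 desmosome genes that were higher, of 6 measured, lay under 3 CPM, and PERP, a desmosomal membrane protein, was at 28.5 and 22.0 CPM.

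The counts in the remaining lists stand beside 4828 genes higher and 1663 lower of all 18892 tested in cardiomyocytes. Of 5 connexin genes, 3 were higher and 1 lower, with GJC1, connexin 45, at 3.57 and 5.46 CPM. In the tight junction list 4 of 11 were higher and 1 lower, with JAM2, a junctional adhesion molecule, at 3.76 and 14.9 CPM. Among the channels and scaffolds of the disc, KCNJ2, an inward rectifier potassium channel, was at 127 and 93.6 CPM and POPDC2, a membrane protein that binds cyclic AMP, at 71.8 and 50.3 CPM, neither past the limit. Of 21 beta-catenin pathway genes none was higher and 3 were lower: TCF7L2, the DNA-binding partner of beta-catenin, at 137 and 86.0 CPM (ratio 0.627), PYGO1, a coactivator of beta-catenin, at 6.95 and 4.13 CPM, and DKK3, of the dickkopf family, at 8.12 and 4.28 CPM. The median log2 ratio was -0.28 for the adherens junction list, 1.09 for the desmosome list and -0.08 for the pathway, beside 0.08 for all genes. The desmosome median rests on 6 measured genes, without the members DSP and PKP2, and its higher genes were scarce. The more abundant DSC2 (164 and 165 CPM) and PERP had ratios of 1.01 and 0.775.

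Outside cardiomyocytes, the members past the limit were mostly higher in TG, vascular endothelium apart. In fibroblasts 4 of 9 were higher (CTNNA3, CDH2, PKP2 and GJA1), where 16.8% of genes were higher and 9.05% lower. In lymphocytes 7 were higher (17.5% and 13.6% of genes), in macrophages 6 (20.5% and 8.40%) and in pericytes 5 (10.4% and 8.88%). In smooth muscle CDH2, DSP and PKP2 were higher, with ratios of 3.77, 2.51 and 2.19, and CTNNA1 lower, at 0.653 (15.5% and 9.81%). Within cluster 101 CTNNA1 was at 0.819 with an interval that held 1, and with mixed clusters counted in, CDH2, DSP and PKP2 turned to 0.565, 0.837 and 0.551. Clustering each library on its own turned the fibroblast ratios of CTNNA3, CDH2 and PKP2 to 0.217, 0.305 and 0.426. Schwann or neural-like nuclei had PKP2 and GJA1 higher and JUP lower (11.1% and 9.31%). Cardiomyocyte markers were higher in TG relative to cardiomyocytes in all these classes, for example from a median of 30.3% to 88.9% in fibroblasts, and their part in these counts was not tested. Without RYR2-rich nuclei, the members higher in TG numbered 5 in fibroblasts (where 17.0% of genes were higher and 9.01% lower), 8 in lymphocytes (20% and 10.2%) and 4 in pericytes (10.1% and 8.65%), with none lower in these 3 classes. In macrophages 6 were higher and CDH2 was lower, at 0.657 (19.8% and 8.32%). In smooth muscle 3 were higher and CTNNA1 was lower, at 0.519 (13.8% and 9.73%). In Schwann or neural-like nuclei 3 were higher, while CDH2, at 0.469, and JUP were lower (13.2% and 8.86%). In lymphatic endothelium 4 were higher and JUP was lower (13.1% and 8.15%).

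In lymphatic endothelium CTNNA3, CDH2, DSP and PKP2 were higher and JUP lower (13.8% and 11.4% of genes). JUP went from 137 to 75.6 CPM, a ratio of 0.551 (0.471 to 0.644). The cardiomyocyte markers stood at a median of 34.4% (WT) and 83.1% (TG) of the cardiomyocyte level in this class. Their part in the JUP ratio was not tested. With a library-wide profile taken off, at shares of 0.443 in WT and 0.875 in TG, the ratio turned to the other side of 1. The shares are unequal, so this turn cannot be read as a difference in JUP. Within cluster 8, the larger lymphatic cluster, JUP was at 155 and 97.1 CPM, a ratio of 0.628, while CTNNA3 was at 224 and 188 CPM. Cluster 19, with 119 and 118 nuclei, held 4471 and 5356 CPM of CTNNA3 beside median marker levels of 64.8% and 86.0%. In vascular endothelium 1 member passed the limit, CTNNA3, lower in TG with 992 and 604 CPM (11.6% of genes higher and 8.41% lower). Within vascular clusters 4 and 10 CTNNA3 had a ratio of 1.07 in each, and within cluster 16, with 136 and 283 nuclei, of 0.312. Without RYR2-rich nuclei it was at 157 and 158 CPM, a difference not seen there, and 4 other members, CDH2, DSP, PKP2 and GJA1, were higher in TG (12.3% of genes higher and 8.15% lower).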

How the data were processed

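Nuclei were prepared by Dounce homogenisation and an iodixanol gradient and sequenced on the 10x Chromium platform (3' kit), as the labels' protocols state. The authors deposited UMI counts, 1 matrix per library. Per the submitters' processing notes, the build was Sscrofa11.1 and the tools were Seurat 3.1.1 and Cell Ranger 3.1.0. Per the file headers the software was Cell Ranger 5.0.0, which remains unresolved. Whether introns or strand were counted is not given in the sources used here. Coordinates come from a RefSeq gene table on Sscrofa11.1. Symbols in the files covered 16498 genes and a reference table added 841.

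Nuclei had at least 500 genes and at most 5% mitochondrial UMIs. Both libraries were clustered together (scanpy 1.11.5, leidenalg 0.10.2, igraph 0.11.9, Python 3.11.15) on 2000 variable genes without 16 junction genes, 30 components, 15 neighbours and resolution 1, and mural clusters again at 0.5. Classes were named from marker lists. Naming thresholds were set after clusters were seen. Clusters that carried markers of several unrelated classes counted as mixed and were not used (10.4% of WT and 14.4% of TG nuclei) in place of a doublet caller, and 2.54% and 2.24% were unnamed. Empty droplets were not used here. The barcodes shared by the libraries that passed the filters, 75, were kept.

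Intervals are exact Poisson for levels, conditional binomial for ratios and Clopper-Pearson for shares, at 95% (scipy 1.17.1, numpy 2.4.6, pandas 2.3.3). A gene was called at a 1.5-fold difference, an interval leaving out 1 and 20 UMIs over both libraries. This rule was run on simulated counts that held counting error only. Such counts cannot show how the rule fares with differences between animals or libraries. Scaling alternatives used edgeR 4.0.16 in R 4.3.3. Named genes were the members, up to 4 genes of each companion list whose ratio interval lay furthest from 1, and the 5 genes most like CTNNA3. One gene that this rule picked is not reported here. The members and lists were chosen with earlier results of these data known.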

Additional observations from a re-analysis of the deposited data

Results flagged for a closer look

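Several members had TG over WT ratios that lay on the other side of 1 from those in cardiomyocyte-like nuclei, or on opposite sides of 1 in different classes. With 1 library per genotype these differences between classes were not tested. CTNNA3, at 0.865 in cardiomyocytes, had a ratio of 1.504 in fibroblasts, 1.88 in lymphatic endothelium and 3.37 in macrophages. It was at 1.74 in T or NK lymphocytes, 1.51 in pericytes and 0.609 in vascular endothelium. Within single clusters CTNNA3 was at 0.840 (cluster 8) and 1.20 (cluster 19) in lymphatic endothelium and at 1.80 in macrophages (cluster 7). In vascular endothelium it was at 1.07 in clusters 4 and 10 and at 0.312 in cluster 16. JUP, at 0.737 in cardiomyocytes, had a ratio of 0.551 in lymphatic endothelium and 0.374 in Schwann or neural-like nuclei, against 2.04 in macrophages and 2.02 in lymphocytes.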

How the results depend on the processing

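No paired analysis was possible because the labels give no replicate numbers and each genotype has 1 library. The WT ratio of CTNNA3 in smooth muscle over cardiomyocytes, 0.779, was 0.753 with each library clustered on its own, 0.805 with a mitochondrial limit of 1%, 0.813 with nuclei weighted equally, 0.810 with mixed clusters counted in, 0.830 with a library-wide profile taken off, 0.809 in nuclei below the median cardiomyocyte marker share, 0.370 in nuclei with no MYH7, MYL2 or TNNT2 UMI and 1.17 in the shared cluster alone. The TG ratio, 1.21, was 1.17 at resolution 0.5, 1.06 with own clustering, 1.28 at 1% mitochondrial, 1.14 without the most abundant gene and 1.26 when thinned. Members lower in TG cardiomyocytes numbered 0, against 1 with TMM factors and 2 with median-of-ratios factors. Own clustering turned the TG over WT ratios of CTNNA3, CDH2 and PKP2 in fibroblasts to 0.217, 0.305 and 0.426, and of CDH2, DSP and PKP2 in smooth muscle to 0.0987, 0.350 and 0.153, and mixed clusters counted in turned these smooth muscle ratios to 0.565, 0.837 and 0.551. CTNNA3 in vascular endothelium turned to 1.10 at resolution 2, 1.01 weighted equally, 1.02 thinned, 1.00 with mixed clusters and 1.01 without RYR2-rich nuclei. CTNNA3 turned to 0.945 in lymphatic endothelium at 2000 UMIs or more and to 0.983 in pericytes at resolution 2. JUP turned to 1.95 in lymphatic endothelium with the profile taken off, at unequal shares of 0.443 in WT and 0.875 in TG. In macrophages JUP turned to 0.723 at 1% mitochondrial. The causes were not tested. Of 608 TG over WT ratios under other settings, 455 lay within the counting-error interval of the main ratio. Another 135 lay outside it, and 18, of ratios past the limit, turned to the other side of 1. Calls were counted apart from this: of 35 calls outside cardiomyocytes, own clustering kept 24 and mixed clusters counted in kept 23. The profile could not be taken off in TG smooth muscle, pericytes and Schwann or neural-like nuclei. Of the 35 ratios past the limit outside cardiomyocytes, only 1 could be computed with the profile taken off. That ratio did not keep its call, so the others could not be checked in this way. Depth limits the scarce members most: in TG smooth muscle DSP, PKP2 and JUP rested on 22, 24 and 17 UMIs.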
